A study of Mus musculus with 2 samples.

Results

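The genes described here are Sox9, Sox5 and Sox6, the chondrogenic trio of SOX transcription factors, in single-cell RNA sequencing of costal cartilage-derived stem cells (CDSCs) taken fresh from the rib or after culture. They were chosen by name, and all 3 were matched by symbol among the 21849 genes of the count tables. SOX9 is the master regulator of the chondrocyte lineage: it carries a high-mobility group DNA-binding domain and a transactivation domain, and without it no cartilage forms. SOX5 and SOX6 are closely related to each other, have the DNA-binding domain but no transactivation domain of their own, depend on SOX9 for their expression in the embryo, and act with it at enhancers of cartilage matrix genes such as Col2a1 and Acan. The questions put to the data were how much of each transcript the cells carried before and after culture, whether the same cells carried all of them, and how closely each followed the cartilage genes cell by cell.

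Both libraries came from costal cartilage of newborn C57BL/6J mice of the CD45.1 or ZsGreen strain, which was digested with collagenase and sorted for CD45-CD51+ cells, although the labels name bone marrow as the tissue. One library held primary CDSCs, sequenced without culture, and the other held CDSCs at passages 2 to 3, grown in minimum essential medium with 10% fetal bovine serum. How many mice were pooled is not given in the sources used here. Each group was therefore 1 library. Cells are not replicates, so no difference below has a test, and intervals (95%) cover counting error only.

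A total of 11746 primary and 5338 cultured cells passed the filter of at least 500 genes, at least 1000 unique molecular identifiers (UMIs, each marking 1 captured RNA molecule) and at most 10% mitochondrial UMIs. The median primary cell held 10027 UMIs and the median cultured cell 56865, so shares of cells were compared after each cell had been thinned at random to 5000 UMIs, which left 10959 primary and 4543 cultured cells. ZsGreen had 60957 UMIs among primary cells and 0 among cultured ones, and 32 cell barcodes occurred in both. Strain or animal and culture cannot be told apart. Chondrocyte markers named 97.5% of the primary cells chondrocyte-like and named no cultured cluster so. Genes of the immediate early and heat shock list, which tissue dissociation can induce, had fallen at least 4-fold after culture in 10 of 11 cases, with a median log2 ratio of -3.35, and their part in the results below was not tested.

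Sox9 (ENSMUSG00000000567) is a compact gene on the plus strand of chromosome 11 (GRCm38, 112782224 to 112787760), with 74.7% of its 5.54 kb in exons. Sox5 (ENSMUSG00000041540) lies on the minus strand of chromosome 6 (143828425 to 144781977) and spans 954 kb, of which 1.51% is exonic. Sox6 (ENSMUSG00000051910) lies on the minus strand of chromosome 7 (115470872 to 116038796) and spans 568 kb, of which 2.61% is exonic. The trio thus joins a short gene to a pair of very long, almost wholly intronic ones. Whether intronic reads were counted is not given in the sources used here, and the UMIs that fell in all genes spanning at least 200 kb are given beside the results where they move with them.

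SOX proteins bind DNA through a short core, and the letters AACAAT, a form of that core, were looked for on both strands of the RefSeq promoters (GRCm38.p6), each taken from 250 bases before to 50 bases after a transcription start. They occurred in 3521 of 32851 promoters (10.7%). Of the 26 genes on the cartilage matrix lists used below, 20 had an entry, with 23 promoters, of which 4 held the letters (17.4%). These belonged to Epyc, Hapln3 and Prelp. Sox9, Col2a1, Col9a3, Snorc, Comp, Scrg1 and Clec3a had no entry. The letters were in 1 of 6 promoters of Sox6 and not in that of Sox5. Below stand the 250 bases before the start for a promoter of Epyc (epiphycan, a small cartilage proteoglycan; chr10:97643818-97644067, plus strand), shown because Epyc went with Sox9 across primary cells with a Spearman correlation of 0.18, and for the one of Sox6 (chr7:115824711-115824960, minus strand). Both are written in the direction of transcription, with AACAAT or its reverse complement ATTGTT in capitals. A match describes these letters only.
Epyc: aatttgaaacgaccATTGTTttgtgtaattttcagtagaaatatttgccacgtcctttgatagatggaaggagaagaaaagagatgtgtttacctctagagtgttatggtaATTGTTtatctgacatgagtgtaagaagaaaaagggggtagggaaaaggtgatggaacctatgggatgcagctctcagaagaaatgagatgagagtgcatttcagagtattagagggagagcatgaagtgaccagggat
Sox6: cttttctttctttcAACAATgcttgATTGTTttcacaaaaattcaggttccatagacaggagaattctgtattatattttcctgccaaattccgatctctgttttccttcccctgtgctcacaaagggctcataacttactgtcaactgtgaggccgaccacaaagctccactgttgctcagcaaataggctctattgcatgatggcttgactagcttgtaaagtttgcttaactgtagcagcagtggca

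All members were lower in the cultured library, and Sox9 by far the most. Sox9 gave 179398 UMIs in primary cells, or 1308 CPM (UMIs scaled to the same total in each library; 1302 to 1314), and 26804 UMIs or 81.2 CPM (80.2 to 82.2) in cultured cells. The log2 ratio of cultured over primary was -4.01 (-4.03 to -3.99), a 16.1-fold difference. For Sox6, primary cells had 737 CPM (733 to 742) and cultured cells 213 CPM (212 to 215), with a log2 ratio of -1.79 (-1.80 to -1.77), or 3.45-fold. Sox5 had 609 CPM (605 to 613) before and 264 CPM (262 to 266) after culture, with a log2 ratio of -1.20 (-1.22 to -1.19), or 2.30-fold. With a fold of at least 4 as the call, 1 of the 3 members was lower and none higher, where of the 9115 genes that reached 10 CPM in one of the libraries 5.73% were called lower and 10.6% higher. With a fold of at least 2, all 3 were lower, against 12.5% of genes lower and 27.2% higher. A more negative ratio than that of Sox9 was found for 2.25% of the genes, than that of Sox6 for 6.64% and than that of Sox5 for 10.4%. The median log2 ratio of all these genes was 0.37, so relative to the typical gene the members lay lower by that much more. Among the 591 of these genes that span at least 200 kb the median was 0.19, and such genes took 6.27% of primary UMIs and 6.12% of cultured UMIs. In sums over cells, fewer cells with a transcript and less of it per cell cannot be told apart, which is why the members were next counted cell by cell.

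At 5000 UMIs per cell, Sox9 was seen in 95.2% of primary and 30.4% (29.1 to 31.8) of cultured cells, Sox5 in 90.7% and 60.7% (59.3 to 62.1), and Sox6 in 91.6% and 56.5% (55.1 to 58.0). Without thinning, the shares were 96.0%, 96.4% and 96.4% in the primary cells and 74.4%, 83.0% and 83.3% in the deeper cultured cells. The typical primary cell thus carried several molecules of each, and the typical cultured cell none of Sox9 at this depth. The mean of Sox9 per cell was 6.33 UMIs (median 5, 90th percentile 13, maximum 44) in primary and 0.421 (median 0, 90th percentile 1, maximum 7) in cultured cells. For Sox5 the means were 3.06 (median 3) and 1.49 (median 1), and for Sox6 3.70 (median 3) and 1.12 (median 1). The distribution of Sox9 in the cultured library lay almost wholly at 0 to 2 UMIs, with 106 of 4543 cells at 3 or more. The variance over the mean, which is 1 for pure counting, was 3.32 for Sox9, 1.71 for Sox5 and 2.23 for Sox6 in primary cells and 1.37, 2.67 and 1.94 in cultured cells. By this ratio Sox9 was the highest member among primary cells and, at its low level, the lowest among cultured cells, where Sox5 was the highest. In both libraries this order was also that of the means. The ratio therefore does not show which member was the most uneven apart from its level.

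**Figure D1:**
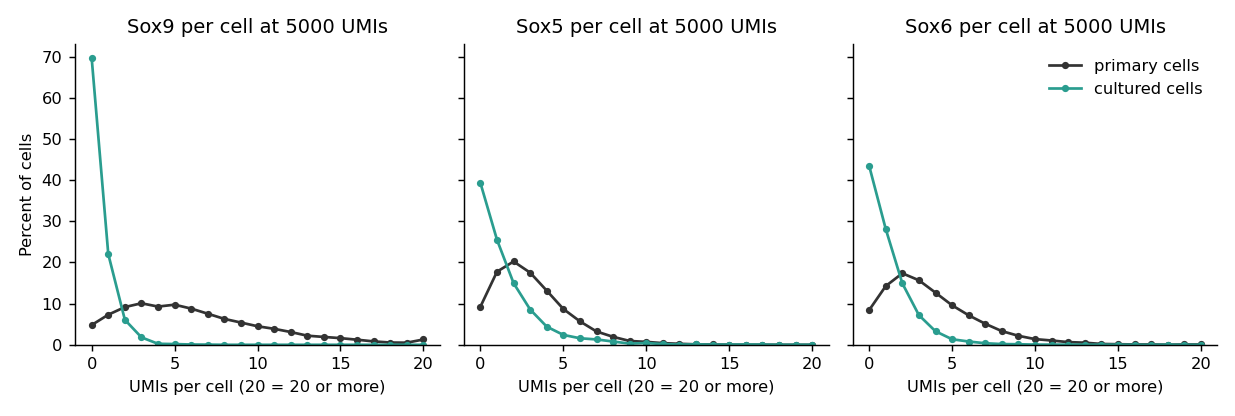
Percent of cells (y axis) by the number of UMIs of Sox9, Sox5 or Sox6 (x axis, 20 standing for 20 or more) in cells thinned to 5000 UMIs, for 10959 primary and 4543 cultured cells. Sox9 has a median of 5 UMIs in primary cells and 0 in cultured cells, while Sox5 and Sox6 keep a median of 1 UMI in cultured cells.

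Free RNA can put UMIs of a gene into cells that do not express it, so other cell types of the same libraries were looked at. Whether those cells express the members themselves was not tested, so their shares do not measure free RNA. In the primary library, 72 thinned cells named mesenchymal fibroblast-like (cells with the highest doublet scores left out, median 5424 UMIs before thinning) had a Sox9 UMI in 41.7% (30.2 to 53.9), against 95.5% of chondrocyte-like cells (median 9696 UMIs). Sox5 was seen in 61.1% and Sox6 in 54.2% of the 72 cells, against 90.8% and 91.7% of chondrocyte-like cells. Col2a1 was seen in 100% of both. A group of 26 cells led by the mast cell proteases Tpsb2, Cma1 and Mcpt4 still held Sox9 at 713 CPM and Col2a1 at 26171 CPM, both below the library's own 1308 and 53268 CPM, and the part of free RNA or doublets in this was not tested. This group was left unnamed and was not of mast cells alone. It had raised levels of 8 endothelial, 4 mast cell, 3 erythroid and 1 smooth muscle and pericyte markers. The 9 haematopoietic-like cultured cells (median 35946 UMIs) held Sox9 at 17.3 CPM (6.94 to 35.6), Sox5 at 155 CPM and Sox6 at 133 CPM, and for each member 1 of the 9, not necessarily the same cell, had a UMI after thinning (11.1%, 0.281 to 48.2), a share that 9 cells leave too wide to set against the others. A group of 54 cultured cells led by Lars2 and Csmd3, thinned to 53, had Sox9 in 9.43% (3.13 to 20.7) and Sox5 and Sox6 in 96.2% each, so the shares differed between cultured cells by more than counting error.

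Most primary cells held the whole trio. All 3 transcripts were seen in 8767 of 10959 primary cells (80.0%) but 571 of 4543 cultured cells (12.6%), and none of them in 18 primary (0.164%) and 712 cultured cells (15.7%). The most frequent pattern in culture was Sox5 with Sox6 and without Sox9, in 25.8% of cultured cells against 3.77% of primary ones. Depth set much of this: in the 4156 cultured cells with at least 20000 UMIs, thinned to that number, Sox9 was seen in 67.4%, Sox5 in 88.9%, Sox6 in 89.4% and all of them in 56.0% (54.5 to 57.6). In primary cells the observed over expected shares were 1.00 for Sox9 with Sox5, 1.00 for Sox9 with Sox6 and 1.01 for Sox5 with Sox6. With single shares of 95.2%, 90.7% and 91.6% these ratios could not lie far above 1, so they cannot show whether the members go together. Sox5 was seen in 91.0% of primary cells with Sox9 and 86.5% of those without, and Sox6 in 91.7% and 88.6%. By Sox5, Sox6 was seen in 92.3% of primary cells with it and 84.2% of those without. In cultured cells the ratio was 1.03 (0.972 to 1.10) for Sox9 with Sox5, 1.08 (1.01 to 1.14) for Sox9 with Sox6 and 1.12 (1.08 to 1.16) for Sox5 with Sox6. Sox6 was seen in 63.1% of cultured cells with Sox5 and in 46.4% of those without, so the pair of related genes had the highest ratio, with an interval that overlapped that of Sox9 with Sox6.

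Among the other SOX genes, 3 of 17 reached 10 CPM in either library, and they did not move together. Sox4, a SOX gene of many progenitor and mesenchymal cells, went from 51.5 to 590 CPM (log2 ratio 3.52). Sox8, the close relative of Sox9, went from 16.2 to 0.0727 CPM (-7.80), and Sox11 from 47.4 to 3.95 CPM (-3.58).

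The cartilage matrix genes, among them the known targets of the trio, had list medians far below the members' ratios, though not every gene was below Sox9. Of the 25 genes on the cartilage lists with at least 10 CPM, 24 were lower by at least 4-fold after culture, and together the cartilage lists took 10.9% of all primary UMIs and 0.145% of cultured UMIs. The collagen list had a median log2 ratio of -10.53 (7 of 7 at least 4-fold lower). Col2a1, the main fibrillar collagen of cartilage, went from 53268 to 490 CPM (-6.77), and Col11a1, which is incorporated in the same fibrils, from 6846 to 446 CPM (-3.94), while Col9a1, Col9a2, Col9a3 and Col11a2 differed by -10.53 to -12.81. The proteoglycan list had a median of -7.29 (6 of 7 lower), with Acan, the core protein of aggrecan, at 1954 and 2.51 CPM (-9.60) and Hapln1, the link protein that ties aggrecan to hyaluronan, at -7.29. The exception was Prelp, a leucine-rich repeat protein also made outside cartilage, at 227 and 349 CPM (0.62). The list of matrilins and other cartilage proteins had a median of -10.01 (11 of 11 lower), from Matn4 (-2.84), a matrilin less far down than Sox9, to Chad. Chad, chondroadherin, was at 1530 CPM in the primary library and had 11 UMIs in the cultured one, and Matn1 had 2444 and 2 UMIs.

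**Figure D2:**
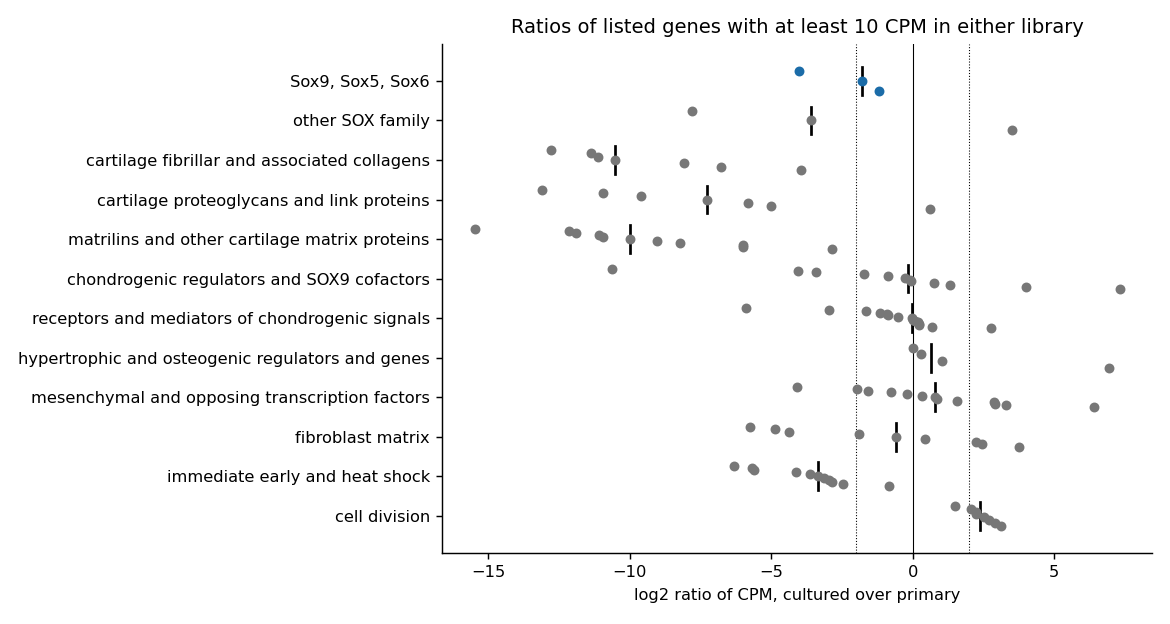
Log2 ratio of CPM, cultured over primary (x axis), of each gene with at least 10 CPM in either library, grouped by list (y axis). Each point is 1 gene, the members stand at -4.01, -1.79 and -1.20, and the 3 cartilage matrix lists have medians between -7.29 and -10.53.

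Proteins known to work with SOX9 went in both directions. Of 12 regulators and cofactors with at least 10 CPM, 3 were at least 4-fold lower, 2 higher and 7 between, where 5.73% and 10.6% of all genes tested were lower and higher, and the median log2 ratio was -0.18. The coactivators Ep300 (-0.05) and Crebbp (-0.26) and the Mediator subunit Med12 (-0.09) were at nearly the same CPM in both libraries. Foxa3 (-10.65), a forkhead factor, Ppargc1a (-4.06), a transcriptional coactivator, and Wwp2 (-3.40), a ubiquitin ligase whose intron carries a cartilage microRNA, were lower, and Arid5b (4.02), a chromatin partner of SOX9, and Barx1 (7.34), a homeobox gene of jaw and joint mesenchyme, were higher. Among 15 receptors and mediators of chondrogenic signals the median was -0.04. Fgfr3, a receptor of growth plate chondrocytes, went from 153 to 2.55 CPM (-5.91) and the parathyroid hormone receptor Pth1r from 61.6 to 7.86 CPM (-2.97), and Tgfbr2, a TGF-beta receptor, from 45.5 to 312 CPM (2.78). Runx2, which drives hypertrophy and bone formation, was at 110 and 112 CPM (0.03), but Spp1, osteopontin, of the same list was at 53.1 and 6573 CPM (6.95), and the median of the 4 genes measured was 0.66. The mesenchymal factors Prrx1 (3.31), Prrx2 (6.41), Twist1 (2.90) and Twist2 (2.86) were at least 4-fold higher in culture, as 4 of 13 genes on their list against 10.6% of all genes. Lef1 (-4.08) of that list was at least 4-fold lower, and Snai1 (-1.96) and Id1 (-1.59) were lower by less.

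Sox9 and the other members were ordered differently over the clusters of the primary library. The members were taken out of the genes used for clustering, but genes that vary with them were not, so these levels are descriptions. Over 9 primary clusters of at least 100 cells Sox9 ranged 2.24-fold. It was highest at 1593 CPM (1573 to 1612) in cluster 3, led by Trf (transferrin) and Fzd9, and then at 1528, 1498, 1464 and 1434 CPM in clusters 5, 7, 4 and 6, the last 3 led by Slc35f1, Aoc2 and Gfra1, whose intervals overlapped from each to the next. It was at 1187 CPM in the dividing cluster 9 (Pbk, Cenpf) and 1143 CPM in cluster 1 (Cytl1), whose intervals overlapped too. The lowest levels were 759 CPM (714 to 807) in cluster 10, led by Jazf1 and Zbtb16, and 711 CPM (699 to 724) in cluster 2, led by Tll1 and Clu, and those intervals also overlapped. All 9 were named chondrocyte-like. In cluster 6, 39.2% of cells were among those with the highest doublet scores, against 1.96% to 16.6% in the others, and the part of doublets in its level was not tested.

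Sox5 and Sox6 were highest where Sox9 was lowest. Sox5 was at 958 CPM (907 to 1011) in cluster 10 and 817 CPM (803 to 831) in cluster 2, against 470 CPM (460 to 481) in cluster 3. Sox6 was at 1080 CPM (1065 to 1096) in cluster 2 and 1059 CPM (1006 to 1115) in cluster 10, intervals that overlapped, and at 512 CPM (501 to 524) in cluster 3. Cluster 7, led by Slc35f1, Runx3 and Wnt5b, was the one with both a high Sox9 and a high Sox6 (921 CPM). The cartilage genes did not simply follow Sox9 over clusters: cluster 2 had the lowest Col2a1 of the 9 (31043 CPM), and cluster 10, with about as little Sox9, had 68880 CPM. Genes spanning at least 200 kb took 4.89% of UMIs in cluster 3, where Sox5 and Sox6 were lowest, 7.54% in cluster 10 and 8.22% in cluster 2, and the part of this in the levels was not tested.

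Among the 8 cultured clusters of at least 100 cells Sox9 ranged 2.92-fold (2.59 to 3.31), all of it below the primary range. With 30 in place of 10 principal components the range was 36.2-fold, since a cluster of 126 cells with 4.22 CPM then stood alone. It was highest in cluster 7, led by Nr5a2 and Barx1, at 157 CPM (152 to 162), with Sox5 at 186 CPM, Sox6 at 241 CPM, Col2a1 at 1037 CPM and Acan at 0.40 CPM. It was at 107 CPM in the fibroblast-like cluster 8 and 103 CPM in cluster 3 (Aspn, Gpc3), which overlapped, 84.7 CPM in cluster 5 (Mmp13), and 66.7, 66.6 and 65.3 CPM in clusters 6, 4 and 1, which overlapped. The lowest was 53.6 CPM (47.5 to 60.3) in cluster 2, a group of 867 shallow cells with a median of 1283 UMIs. Sox5 ranged more widely, from 55.6 CPM in cluster 2 over 117 CPM in cluster 8 and 119 CPM in cluster 1, which overlapped, to 417 CPM in cluster 3 and 449 CPM in cluster 5, which carries the collagenase gene Mmp13. Sox6 was highest in cluster 3 (329 CPM) and lay between 229 and 244 CPM in clusters 5, 7, 6 and 8, with intervals that overlapped from each to the next but not between 5 and 8. The small group led by Lars2 and Csmd3 stood apart, with Sox9 at 31.6 CPM but Sox5 at 1124 CPM and Sox6 at 934 CPM. Genes spanning at least 200 kb took 20.6% of its UMIs against 2.21% to 8.38% in the 8 clusters, and mitochondrial genes 6.20% against 0.549% to 2.62%, at a median of 20719 UMIs per cell. Their part in these levels was not tested.

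**Figure D3:**
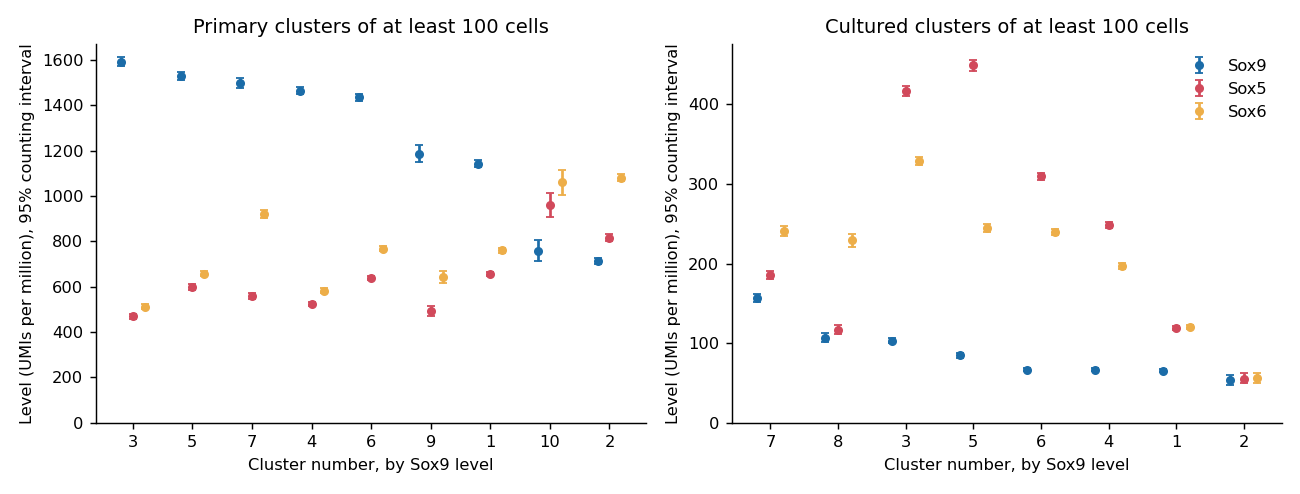
CPM of Sox9, Sox5 and Sox6 (y axis, linear, with 95% counting intervals) in clusters of at least 100 cells, ordered along the x axis by Sox9 and named by number, for the primary (left) and cultured (right) library on different scales. In the primary library Sox9 falls from 1593 CPM in cluster 3 to 711 CPM in cluster 2 while Sox6 goes from 512 to 1080 CPM.

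**Figure D4:**
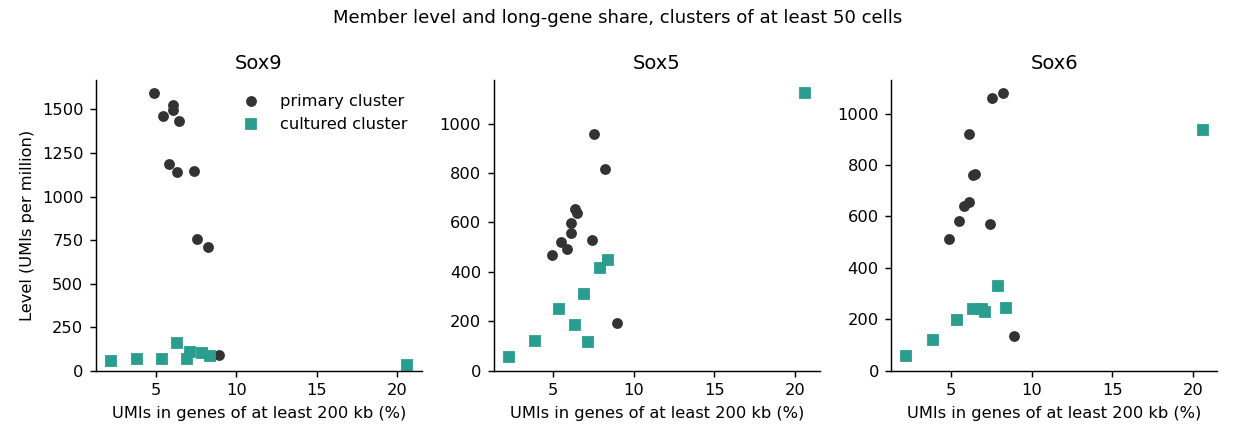
CPM of each member (y axis) against the percent of UMIs in genes spanning at least 200 kb (x axis) in clusters of at least 50 cells, with primary clusters as circles and cultured clusters as squares. The cultured square at 20.6% has 1124 CPM of Sox5 and 934 CPM of Sox6 but 31.6 CPM of Sox9.

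Cell by cell, Sox9 followed the cartilage genes weakly in primary cells, and Sox5 and Sox6 did not. Across the 10959 thinned primary cells the Spearman correlation with the summed UMIs of the cartilage lists was 0.22 for Sox9, -0.13 for Sox5 and -0.24 for Sox6. The cells share 1 library and a fixed depth, and a larger cartilage sum leaves fewer UMIs for every other gene. Sox9 was positive with 7 of 7 collagens, 5 of 7 proteoglycans and 7 of 10 other cartilage genes seen in at least 10% of cells, highest for Col2a1 (0.23), Scrg1 (0.22), Acan (0.22), Ucma (0.21) and Mia (0.20). It was negative with Fmod (-0.24), Prelp (-0.17) and Comp (-0.13), which are made in tendon as well, and with Cytl1 (-0.10) and Matn3 (-0.02). Sox6 was positive with 1 of 7 collagens and Sox5 with 3 of 7. From the cells without a Sox9 UMI (526 cells) to those with 10 or more (2368 cells), mean Col2a1 went through 177, 220, 255, 270 and 274 UMIs and mean Acan through 5.65, 7.47, 8.97, 9.84 and 10.1 UMIs, so the increase lay mostly in the cells with few Sox9 molecules and levelled off above 6. Other genes moved the other way: mean Col1a1, a fibroblast collagen, was 9.12 UMIs in the cells without Sox9 and then 1.33, 0.263, 0.138 and 0.101. Mean Clu, a leading gene of the chondrocyte-like cluster 2, went from 8.46 to 1.69. Their part in the relation was not tested. Set the other way, mean Sox9 per 1000 UMIs outside the cartilage lists was 0.986 in the 2192 cells with the smallest cartilage sums and 1.63 in the 2191 with the largest, while Sox5 went from 0.761 to 0.614 and Sox6 from 1.02 to 0.657.

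Within clusters the relation had no common sign. Without cluster 2, which was low in both Sox9 and cartilage genes, the correlation of Sox9 with the cartilage sum was 0.085. Within the 9 primary clusters its correlation with the cartilage sum had a median of -0.05, positive in 4 and negative in 5 of 9, and that with Col2a1 ranged from -0.12 to 0.12 with a median of -0.003, positive in 4 of 9. With Acan it was positive in 8 of 9, with a median of 0.045, too weak to be read as a finding. Sox6 was negative with the cartilage sum in 9 of 9 clusters (-0.24 to -0.03). The correlation of Sox9 with the cartilage sum was also 0.02, 0.13 and 0.31 in the 3653 cells with the fewest, the 3653 with intermediate and the 3653 with the most UMIs in genes spanning at least 200 kb, and from the first of these groups to the last mean Sox9 went from 7.18 to 5.15 UMIs, Sox5 from 2.14 to 4.03 and Sox6 from 2.46 to 5.15. The part of long-gene UMIs in these relations was not tested.

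Sox5 and Sox6 were positive with each other in both libraries. Their correlation was 0.22 across primary cells, positive in 9 of 9 clusters (0.11 to 0.32), and 0.23 across cultured cells, positive in 8 of 8 clusters (0.02 to 0.22). It was 0.08, 0.08 and 0.16 within the groups of primary cells with few, intermediate and many long-gene UMIs, and 0.07, -0.01 and 0.13 within those of cultured cells. Sox9 had a correlation of -0.05 with Sox5 and -0.09 with Sox6 in primary cells. Sox9 was also negative with the heat shock gene Hspa1a (-0.24 across all primary cells, negative in 9 of 9 clusters). Hspa1a was the lowest of the 11 genes on the immediate early and heat shock list. Of these 6 were positive and 5 negative with Sox9, with a median of 0.03 and the highest value for Junb (0.14).

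In cultured cells all 3 members were weakly positive with the summed cartilage UMIs, but not with every gene. Across 4543 cells the correlation with the cartilage sum was 0.092 for Sox9, 0.13 for Sox5 and 0.21 for Sox6, where Sox5 and Sox6 had a negative sign in primary cells. The sign of Sox5 was not steady over long-gene UMIs: in cells with few, intermediate and many of them it was -0.01, 0.01 and 0.05 in the primary and 0.06, 0.02 and 0.01 in the cultured library. For Sox6 it was -0.11, -0.07 and -0.04 in primary and 0.06, 0.12 and 0.18 in cultured cells. Col2a1, Col11a1, Comp, Prelp and Fmod were the only cartilage genes seen in at least 10% of thinned cultured cells, and the strongest pairs were Sox6 with Col11a1 (0.28) and Sox5 with Col11a1 (0.23), with Sox9 and Col2a1 at 0.11. Prelp was negative with Sox5 (-0.09) and Sox6 (-0.07). Sox9 with Col2a1 was positive in 7 of 8 clusters (median 0.11) and Sox6 with the cartilage sum in 8 of 8 (median 0.14). Mean Col2a1 was 2.20 UMIs in the 3161 cultured cells without a Sox9 UMI, 2.74 in 1000 cells with 1, 4.38 in 276 cells with 2 and 6.44 in 106 cells with 3 to 7. Sox9 was seen in 24.6% of the 909 cells with the smallest and 36.3% of the 908 with the largest cartilage sums, and Sox6 in 45.1% and 69.3%.

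**Figure D5:**
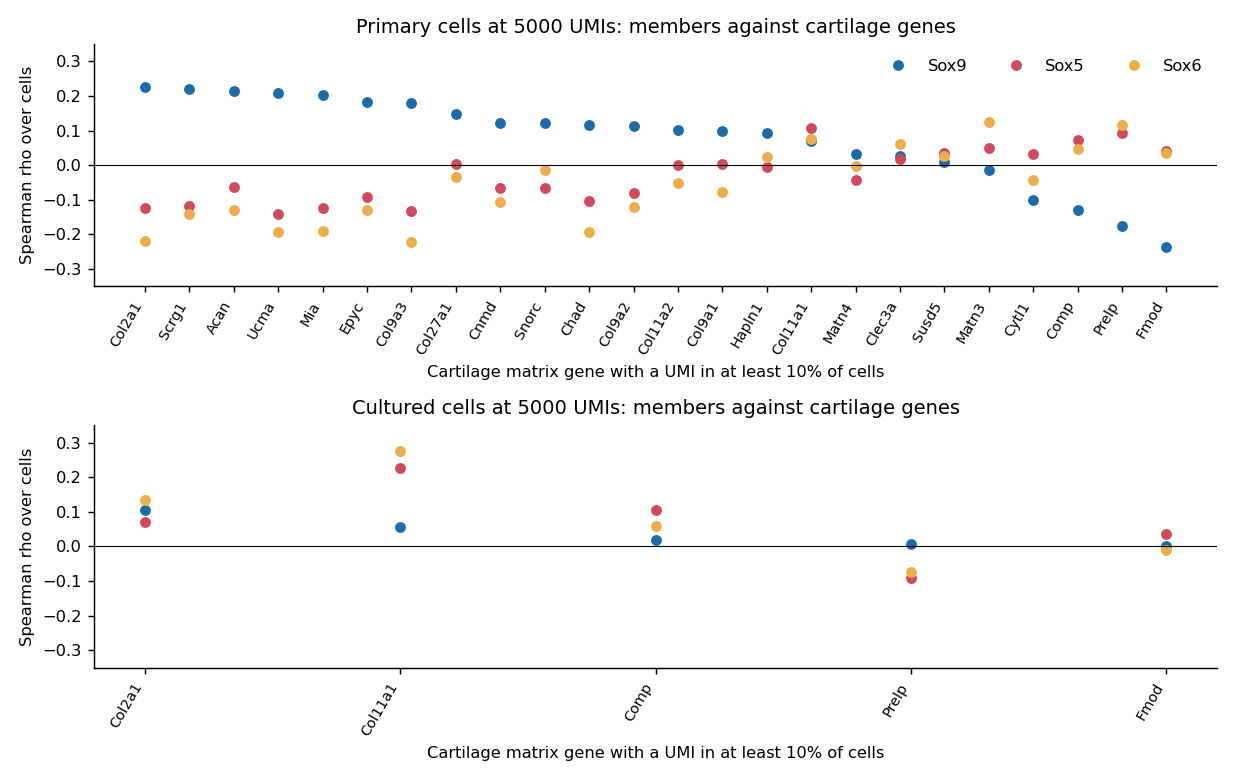
Spearman correlation across cells thinned to 5000 UMIs (y axis) of each member with single cartilage genes (x axis), in 10959 primary and 4543 cultured cells. In primary cells Sox9 lies above 0 for Col2a1 (0.23) and Acan (0.22) and below 0 for Fmod (-0.24), while Sox6 lies at -0.22 for Col2a1.

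The genes whose UMIs followed each member most closely differed by member. They were ranked by Pearson correlation of log2(UMIs + 1) over thinned cells, among 5250 primary and 6127 cultured genes seen in at least 10% of cells. In primary cells the 6 nearest Sox9 were Col2a1 (0.30), Actg1 (0.27), Col9a3, Xylt1, Ucma and Acan (0.25), of which Xylt1 encodes the enzyme that starts glycosaminoglycan chains. The farthest were Hspa1a (-0.27), Clu (-0.27), Hspa1b and Cdkn1c (-0.24). Nearest Sox5 stood Zbtb20 (0.28), Sox6 (0.22), Gpc6, Peg3, Auts2 and Kcnq5, and nearest Sox6 stood Zbtb20 (0.31), Kcnq5, Peg3, Kcnma1, Gpc6 and Pam. Zbtb20 encodes a zinc finger repressor with a role in chondrocytes. Its level was 2647 CPM before and 807 CPM after culture (log2 ratio -1.71). Actin gene Actg1 was second nearest to Sox9 and farthest from both Sox5 (-0.19) and Sox6 (-0.22). Of the genes nearest Sox5 and Sox6 in primary cells, Peg3 was the only one that spans under 200 kb.

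In cultured cells Col2a1 was again nearest to Sox9, at 0.13, followed by Peg3 (0.11), Palmd, Npr3, Fn1 and Cxcl12. Nearest Sox5 were Setbp1 (0.39), Prkg1, Pak3, Zbtb20, Atxn1 and Efna5, and nearest Sox6 Zbtb20 (0.35), Prkg1, Setbp1, Maml2, Naaladl2 and Samd4, all of which span at least 200 kb. The calcium-binding protein gene S100a6 was farthest from all 3 members, at -0.11 for Sox9, -0.34 for Sox5 and -0.32 for Sox6.

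A few cultured cells carried more cartilage transcripts, and the trio was higher in them. Of the 5338 cultured cells 227 (4.25%) held all 830 Acan UMIs, and the 50 with the most held 71.6% of them. Among cultured cells with at least 20000 UMIs, 3939 had no Acan UMI, 148 had 1 or 2 and 69 (1.66%) had 3 or more, a division made after the values were seen and one that uses the cartilage gene, not the members. Sox9 was at 78.8, 101 and 165 CPM in these groups, Sox5 at 261 CPM in the first and 366 CPM in the last, and Sox6 at 210, 221 and 397 CPM. In summed UMIs the 69 cells were thus higher than the cells without Acan by 2.10-fold for Sox9 (1.96 to 2.24), 1.40-fold for Sox5 (1.34 to 1.46) and 1.89-fold for Sox6 (1.81 to 1.97). Between the medians of CPM per cell the folds were 1.75, 1.40 and 1.91. Sox9 per cell ran from 28.0 CPM at the 10th to 488 CPM at the 90th percentile of the 69 cells. Most of the cartilage genes compared differed by more in summed UMIs: 4.77-fold for Col2a1 (449 against 2142 CPM), 62.8-fold for Col9a1, 87.6-fold for Col9a3 and 18.9-fold for Cnmd, chondromodulin. Col9a1 was seen in 47.8% of the 69 cells, so a part of them carried that fold. Comp was at 44.7 CPM without Acan and 70.7 CPM in the 69 cells, and Prelp at 349.6 and 222.9 CPM. Zbtb20 differed by 1.09-fold, Sox4 by 0.897-fold and Col1a1, the bone and skin collagen, by 0.886-fold. All 3 members were seen in 65 of the 69 cells (94.2%) and in 86.0% of those without Acan, at median depths of 70258 and 70670 UMIs. ZsGreen, present in the primary library, had 0 UMIs in these 69 cells, as in all cultured cells. Without the cells of highest doublet score the folds of the members in summed UMIs were 2.03, 1.46 and 1.95. Even in these cells Sox9 stayed at 165 CPM, against 1308 CPM in the primary library.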

How the data were processed

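Per the study's methods, libraries were made with a Chromium 3' kit, and reads were counted by the authors with Cell Ranger 7.0.0 against mm10/GRCm38. What was deposited are unnormalised UMI counts, whole numbers for each gene in each barcode. The labels list mm10, GRCm38 and GRCm39. The intron setting and the annotation release are not given in the sources used here, so gene spans came from GENCODE M21 (GRCm38).

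Of 11896 primary barcodes 150 failed the filter, and of 10798 cultured barcodes 5460 (50.6%) did. Kept cells held 137148874 and 330129909 UMIs, and thinning left out 787 and 795 shallower cells. Sums were scaled to CPM with exact Poisson intervals, ratios had exact conditional and shares Clopper-Pearson intervals, and counts under 3 were raised to 3. Thinning was without replacement (seed 20). Cells were clustered within each library (scanpy 1.11.5, leidenalg 0.10.2) on 2000 variable genes without the members, 10 principal components, 20 neighbours and resolution 0.5, and named from marker lists. Scrublet's automatic threshold called 0 and 1 doublets and had not worked, so doublets were kept, and 1118 and 461 cells of highest score were left out only where stated.

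Named genes were the members, list genes with at least 10 CPM, the 6 nearest and 4 farthest genes per member, and genes leading clusters. Some genes leading clusters are not reported here. Other genes and groups, the Acan groups and the mitotic cells included, were chosen after their values were seen. The members and lists were chosen with earlier results of these data known. The scripts were tested on simulated data. Numpy 2.4.6 and scipy 1.17.1 were used.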

Additional observations from a re-analysis of the deposited data

Results flagged for a closer look

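The barcodes that the cell filter left out also carried the members, above the limit that a count of 0 allows (14.3 CPM over the primary and 0.476 CPM over the cultured barcodes left out). The 150 primary barcodes left out had a median of 1066 UMIs and held Sox9 at 438 CPM (353 to 537), Sox5 at 1432 CPM (1275 to 1604) and Sox6 at 1589 CPM (1424 to 1769). Set beside the kept cells (1308, 609 and 737 CPM), Sox9 was lower and Sox5 and Sox6 were higher in them. The 5460 cultured barcodes left out had a median of 775 UMIs and held Sox9 at 55.3 CPM (49.6 to 61.4), Sox5 at 347 CPM (332 to 361) and Sox6 at 403 CPM (387 to 419), beside 81.2, 264 and 213 CPM in the kept cells. In both libraries Sox9 was thus lower, and Sox5 and Sox6 higher, in the barcodes left out than in the cells. More than 10% mitochondrial UMIs were found in 113 of the 150 primary but in 131 of the 5460 cultured barcodes left out. The sets were thus mostly left out for different reasons. These barcodes held 0.0513% to 0.359% of all UMIs of a member in the primary and 1.28% to 3.47% in the cultured library.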

How the results depend on the processing

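No paired analysis was possible because each group was 1 library and no test was run. Leaving out a replicate was not possible either. Over 122 values recomputed under alternative settings, no log2 ratio or correlation changed sign and no co-detection ratio crossed 1. Shares of cells, counts of genes and folds over clusters, also among the 122, could not change sign. The relations within clusters and within groups by long-gene UMIs, some of which differed in sign, are not among them. Of the 122 values, 74 moved by no more than their counting interval (correlations by no more than 0.05, counts of genes by no more than 1.5 times) and 48 moved further. The settings without a named cluster, with at least 5000 UMIs in both libraries and with 20000 UMIs per cell were chosen after seeing the data.

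The log2 ratio of Sox9 (-4.01) was -4.03 without the clusters of either library that were named as another cell type, -4.21 with TMM scaling, -3.97 as a mean over cells, -4.16 without cartilage, mitochondrial and ribosomal genes in the total, and -4.10 without primary cluster 2. That of Sox5 (-1.20) was -1.22 with the stricter filter, and -1.18, -1.40, -1.16, -1.35 and -1.14 under those alternatives in the same order. That of Sox6 (-1.79) was -1.77 with every barcode, -1.81 with the stricter filter, -1.99 with TMM, -1.94 without those genes and -1.69 without cluster 2. Shares of cells with Sox9, Sox5 and Sox6 followed the depth: 96.0%, 96.4% and 96.4% (primary) and 74.4%, 83.0% and 83.3% (cultured) without thinning, 81.6%, 65.8% and 70.7% and then 14.7%, 36.8% and 30.9% at 2000 UMIs, and 67.4%, 88.9% and 89.4% in cultured cells at 20000 UMIs. Another seed gave 59.0% for Sox5 in cultured cells. Correlations with the cartilage sum in primary cells were 0.302, -0.0329 and -0.0998 by Pearson and 0.0846, -0.0835 and -0.171 without cluster 2, and that of Sox9 in cultured cells was 0.174 without thinning. Co-detection ratios of Sox9 in cultured cells were 1.15 with Sox5 and 1.15 with Sox6 without thinning. With at least 1 CPM, 960 genes were at least 4-fold lower and 1615 higher. The fold of Sox9 over primary clusters was 2.29 at resolution 1 and 2.39 with 30 components. It was 2.04 when cells of at least 5000 UMIs were clustered and the 787 shallower cells stayed in as 1 further group. Over cultured clusters it was 36.2 with 30 components, where a cluster of 126 cells described below had almost no Sox9. It was 3.57 when cells of at least 5000 UMIs were clustered and the 795 shallower cells stayed in as 1 further group. The folds of 2.04 and 3.57 were thus not limited to cells of at least 5000 UMIs.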

Other observations

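A group of 126 cultured cells had almost none of the trio. It appeared when the cultured library was clustered with 30 principal components, was led by the mitotic genes Kif2c, Cenpe, Cdc20 and Hmmr (Kif2c at 105 CPM, 13.6-fold over the other cells), and was described after its values were seen. It was picked as the cluster of at least 100 cells with the lowest Sox9. Its Sox9 level, fold and rank below therefore describe that choice and lend it no support. Of its cells 58 came from the dividing cluster 4, 48 from the shallow cluster 2 and 20 from cluster 1. Sox9 was at 4.22 CPM (2.41 to 6.85, from 16 UMIs) against 82.1 CPM in the other cultured cells, Sox5 at 19.5 against 267 CPM and Sox6 at 26.6 against 216 CPM. The folds were 19.5 (12.0 to 34.0), 13.7 (10.9 to 17.4) and 8.10 (6.66 to 9.94), and 1.23%, 2.92% and 6.88% of 3488 genes had a lower ratio. At 5000 UMIs Sox9 was seen in 2.63% of 114 cells, Sox5 in 8.77% and Sox6 in 11.4%, against 31.1%, 62.0% and 57.7% of the other cells. The other 691 cells of cluster 4 held Sox9 at 69.2 CPM, Sox5 at 258 CPM and Sox6 at 204 CPM. Low levels in the 126 cells were not particular to the trio. Sox4 was at 64.9 against 596 CPM in the other cultured cells and Fos at 14.8 against 312 CPM, while Acta2 was higher, at 1992 against 1218 CPM. The 126 cells had a median of 20824 UMIs and 3359 genes, against 58224 UMIs and 7460 genes in the other cultured cells. They had 1.56% of UMIs in genes spanning at least 200 kb against 6.17%, and 0.0180% in immediate early and heat shock genes against 0.176%. The proliferation gene Mki67 was at 325 CPM against 69.4 CPM. The part of these differences in the low levels was not tested.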
